A study of Rattus norvegicus with 12 samples.

Results

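The 10 genes described here encode the switch that commits a cell to copy its DNA: the D cyclins Ccnd1, Ccnd2 and Ccnd3, their kinases Cdk4 and Cdk6, the retinoblastoma proteins Rb1, Rbl1 (p107) and Rbl2 (p130), and the transcription factors E2f1 and E2f3. They were taken by symbol from the 17315 genes counted in every library, and all 10 were found and passed the filter on low counts. PolyA RNA was sequenced in 12 libraries of cultured Sprague-Dawley rat retinal cells described as Müller cells, the main glia of the retina. The primary cultures, called Primary MC in the labels (4 libraries, passage 3 or 4), came from pups of postnatal day 2 to 4 and were grown in 20% serum with 2 drugs, the antibiotic gentamicin at 87 mg/L and the antifungal amphotericin B at 2.2 mg/L. SIRMu-1 is a line from pups of that age that became immortal without an introduced gene; its 5 libraries span passages 6 to 20, in 20% serum. Its replicates 3 and 5 had the same 2 drugs and the other 3 had none. For rMC-1 there were 3 libraries of passages 23 and 26, grown in 10% serum without the drugs; this line was made from an adult retina by means of SV40 large T. All media held 25 mM glucose. Each line is a single line, so the spread among its libraries is the spread between cultures of that line, and the labels do not say which primary cultures shared an animal.

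In a resting cell the retinoblastoma proteins sit on E2F factors and keep genes of DNA replication silent. Growth signals raise the D cyclins, which activate CDK4 and CDK6; these kinases phosphorylate the retinoblastoma proteins and set E2F free. SV40 large T binds all retinoblastoma proteins and inactivates them, so that E2F is released without D cyclin kinases. Rbl2 is the member typical of resting cells, while Rbl1 is itself an E2F target made in cycling cells. Müller glia of the mammalian retina rarely divide, and in culture they enter the cycle. T antigen RNA was not analysed here.

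Reads assigned to genes were 22582345 to 38125630 per library. Several defining Müller markers were at or near 0. Aqp4 had 2 counts over the 4 primary libraries and none in either line, Kcnj10 had 13 counts in primary cultures, none in SIRMu-1 and 9 in rMC-1, and Rlbp1 had 6, 22 and 109 counts. The glutamine synthetase gene Glul was at 67.7 to 228 CPM in primary cultures. The 15 Müller markers summed to 8477 to 9836 CPM in primary cultures, 3698 to 4916 in SIRMu-1 and 1972 to 2131 in rMC-1. Most of each sum was Vim, with means of 6207, 3540 and 1367 CPM, so the sums say little about the other markers. Of the 13 Müller markers tested between the lines, 6 were called higher and 3 lower in rMC-1. Of all genes tested there, 30.5% were higher and 32.7% lower. The sum of 10 fibroblast and matrix markers was 73414 to 195732 CPM in primary cultures, 73045 to 98985 in SIRMu-1 and 4744 to 6657 in rMC-1. Of 9 microglia and macrophage markers, 4 (Aif1, Cx3cr1, C1qa and C1qb) had no count in either line, and the sum of the list was at most 15.6 CPM in any library. Endothelial markers summed to 2.86 to 11.7 CPM in primary cultures, 26.1 to 46.2 in SIRMu-1 and 1.55 to 2.45 in rMC-1. The SIRMu-1 sum was almost all Tek (24.5 to 44.6 CPM), while Cldn5 had no count there and Kdr had 1. Pericyte and smooth muscle markers summed to 9964 to 14542, 6901 to 16436 and 1440 to 3666 CPM in primary cultures, SIRMu-1 and rMC-1. Pigment epithelium markers summed to 17.5 to 26.6, 2.7 to 4.91 and 12.1 to 13.7 CPM in primary cultures, SIRMu-1 and rMC-1. In SIRMu-1 and rMC-1 this was almost all Mitf (means of 4 and 13 CPM). Tyrp1 had 1 count in each of the lines and a mean of 6.59 CPM in primary cultures. Neuron and photoreceptor markers summed to 14.8 to 216, 8.2 to 14 and 148 to 191 CPM in primary cultures, SIRMu-1 and rMC-1. In rMC-1 this was mostly Tubb3 and Pax6 (means of 99.6 and 74.8 CPM), while Crx, Nrl and Rcvrn had 1 count each. Several of these sums differ between the same groups as the results below, and their part in them was not tested. In bulk RNA, fewer cells of a type and less RNA per cell cannot be told apart. Levels are given as CPM, the reads of a gene scaled to a common library size with edgeR's TMM factors, which equalize composition, and a gene is called where edgeR's quasi-likelihood test over all 11321 genes tested gave a Benjamini-Hochberg adjusted p under 0.05.

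Of the 10 genes, 6 were called between SIRMu-1 and primary cultures (4 higher, 2 lower), against 46.1% of all genes tested (21.7% higher, 24.4% lower). Between rMC-1 and primary cultures 8 were called (4 higher, 4 lower), against 70.8% of all genes (31.9% higher, 38.9% lower), and between the 2 lines 7 were called (3 higher and 4 lower in rMC-1), against 63.2% (30.5% higher, 32.7% lower). The shares of members called lie near these backgrounds, so what follows is about which genes moved, which way and how far. The libraries of the 2 groups did not overlap for 5, 8 and 7 of the 10 genes in these comparisons, against 35.3%, 70.9% and 63% of all genes. With libraries scaled by their totals alone, the share of calls that were higher went from 45.1% to 61.9% in rMC-1 against primary cultures and from 48.3% to 69.2% between the lines. Both lines were compared with the same primary libraries, so their differences from them are not independent. Against primary cultures, the 10 genes had a median log2 fold change of 0.03 in SIRMu-1, where the median of all genes tested was -0.02, and of 0.14 in rMC-1, where it was -0.15.

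**Figure D1:**
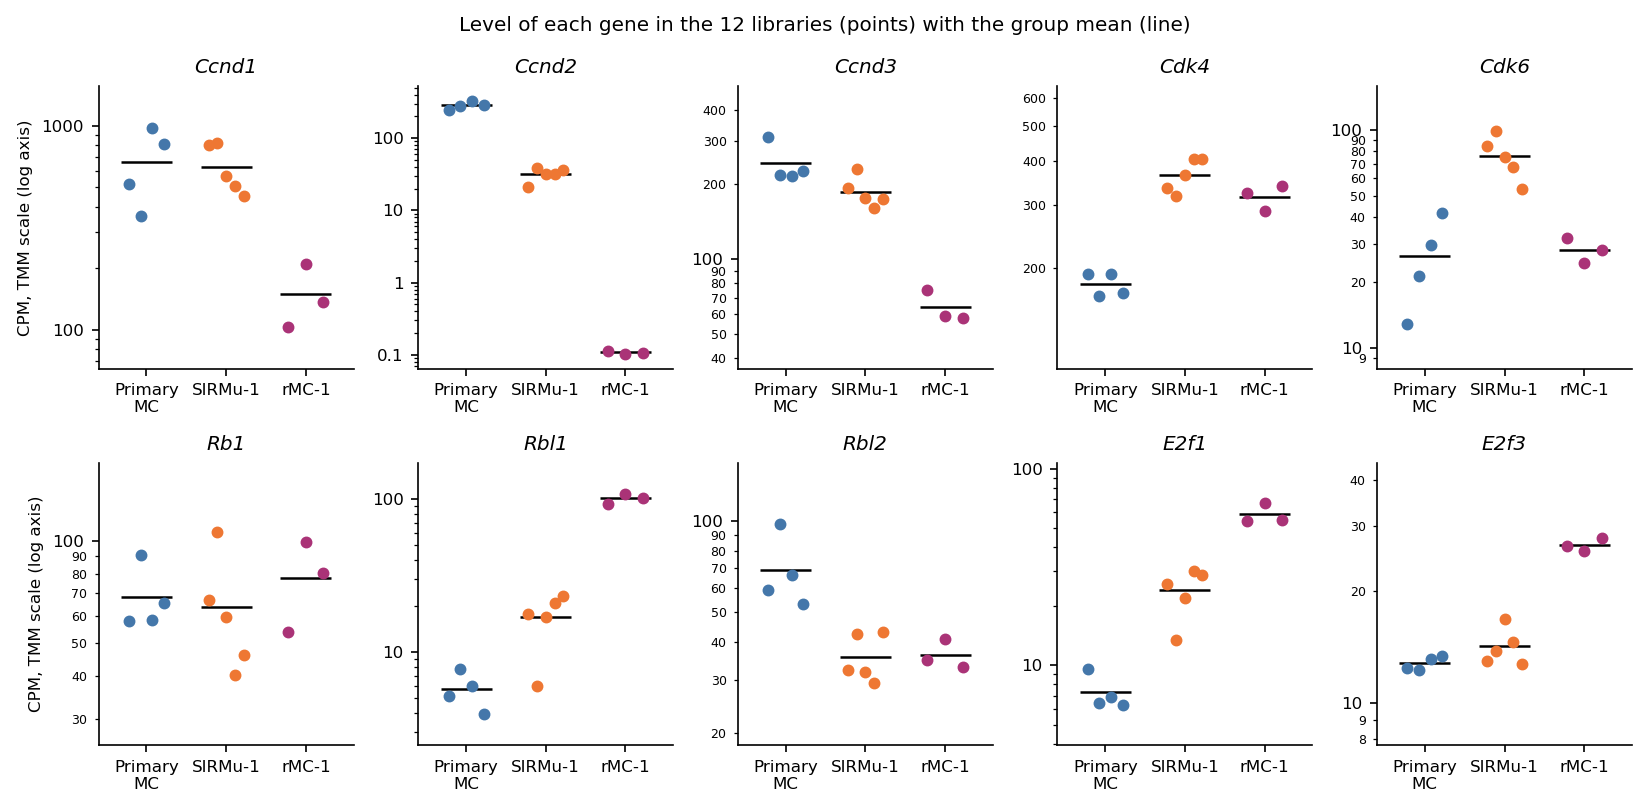
Level of each of the 10 genes in the 12 libraries, in CPM on the TMM scale (log axis), 1 point per library, with a line at the group mean. Ccnd2 lies between 242 and 330 CPM in primary cultures, between 21.3 and 38.2 in SIRMu-1 and at 0.103 to 0.114 in rMC-1, while Rbl1 and E2f1 run the other way and Rb1 overlaps between all 3 groups.

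All 3 D cyclin genes fell in rMC-1, against primary cultures and against SIRMu-1, with no overlap between the groups. In SIRMu-1 against primary cultures Ccnd2 fell, Ccnd1 was not called, and Ccnd3 lay close to the threshold. The 3 genes together summed to 861 to 1525 CPM in primary libraries, 661 to 1089 in SIRMu-1 and 179 to 269 in rMC-1, a sum of reads that is not corrected for gene length.

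Ccnd2 encodes the cyclin D2 of many progenitor and glial lineages. Its level in primary replicates 1 to 4 was 242, 280, 330 and 291 CPM. In SIRMu-1 replicates 1 to 5 it was 21.3, 38.2, 31.5, 32.3 and 36.5 CPM, and in rMC-1 it was 0.114, 0.103 and 0.105 CPM, from 4, 5 and 4 reads. The 3 groups did not overlap, and each step down was far larger than the spread within a group. The log2 fold change was -3.16 ± 0.16 (SE) between SIRMu-1 and primary cultures (edgeR adjusted p = 2.68e-07) and -8.17 ± 0.28 between rMC-1 and SIRMu-1 (edgeR adjusted p = 1.16e-08). Against the 13 reads of all rMC-1 libraries, the level in primary cultures was 2660 times as high (95% counting interval 1555 to 4996) and that in SIRMu-1 300 times (175 to 564). These exact intervals cover counting error only. The fitted change of Ccnd2 between rMC-1 and primary cultures, -11.33 ± 0.31, was larger in size than or equal to that of 99.1% of the genes tested.

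Ccnd1, cyclin D1, is the D cyclin induced by serum and growth factors in most cultured cells. It stood at 516, 362, 978 and 811 CPM in primary replicates 1 to 4. SIRMu-1 replicates 1 to 5 had 800, 820, 567, 508 and 450 CPM, and rMC-1 replicates 1 to 3 had 103, 210 and 137 CPM. SIRMu-1 lay inside the range of the primary cultures, and all rMC-1 libraries lay below every other library. The log2 difference between SIRMu-1 and primary cultures was -0.08 ± 0.31 (95% interval -0.78 to 0.61; edgeR adjusted p = 0.841), and its sign turned without primary replicate 3 (0.16) or 4 (0.02). In rMC-1 Ccnd1 fell by 2.15 ± 0.38 on the log2 scale from primary cultures (edgeR adjusted p = 0.000326), and against SIRMu-1 the change was -2.07 ± 0.37 (0.000445). Within SIRMu-1, the highest levels were at passages 6 (800 CPM) and 11 (820 in replicate 2, 567 and 508 in replicates 3 and 4), and the lowest at passage 20 (450 CPM). Serum (20% in primary and SIRMu-1 cultures, 10% in rMC-1), donor age, passage and the route to immortality all differ between rMC-1 and the rest, and cannot be told apart here. The same holds for gentamicin and amphotericin B against primary cultures, which all had them, while no rMC-1 library did.

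Ccnd3 encodes cyclin D3, the third partner of the same kinases. Primary replicates 1 to 4 had 311, 219, 217 and 226 CPM, SIRMu-1 replicates 1 to 5 had 193, 231, 177, 161 and 174 CPM, and rMC-1 had 75.4, 59.0 and 58.2 CPM. Only the rMC-1 libraries stood clear of the rest, and primary replicate 1 lay above its group. Ccnd3 fell in rMC-1 by 1.92 ± 0.18 on the log2 scale from primary cultures (edgeR adjusted p = 2.49e-06) and by 1.54 ± 0.17 from SIRMu-1 (1.35e-05). The SIRMu-1 value against primary cultures, -0.38 ± 0.15, just missed the threshold (edgeR adjusted p = 0.0521, 0.0191 to 0.17 over the alternatives), and Ccnd3 was called lower in 9 of 22 alternatives, among them the DESeq2 test (0.0238).

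The make-up of the D cyclin RNA can be followed as the number of Ccnd1 reads per Ccnd2 read, since gene length cancels when 1 ratio is compared between groups. It was 1.29 to 2.96 in primary libraries, 12.3 to 37.5 in SIRMu-1 and 908 to 2038 in rMC-1, so no group overlapped another. Ccnd1 reads per Ccnd3 read were 1.66 to 4.51, 2.59 to 4.14 and 1.37 to 3.56, with overlap between all groups. These ratios are descriptions and carry no test.

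**Figure D2:**
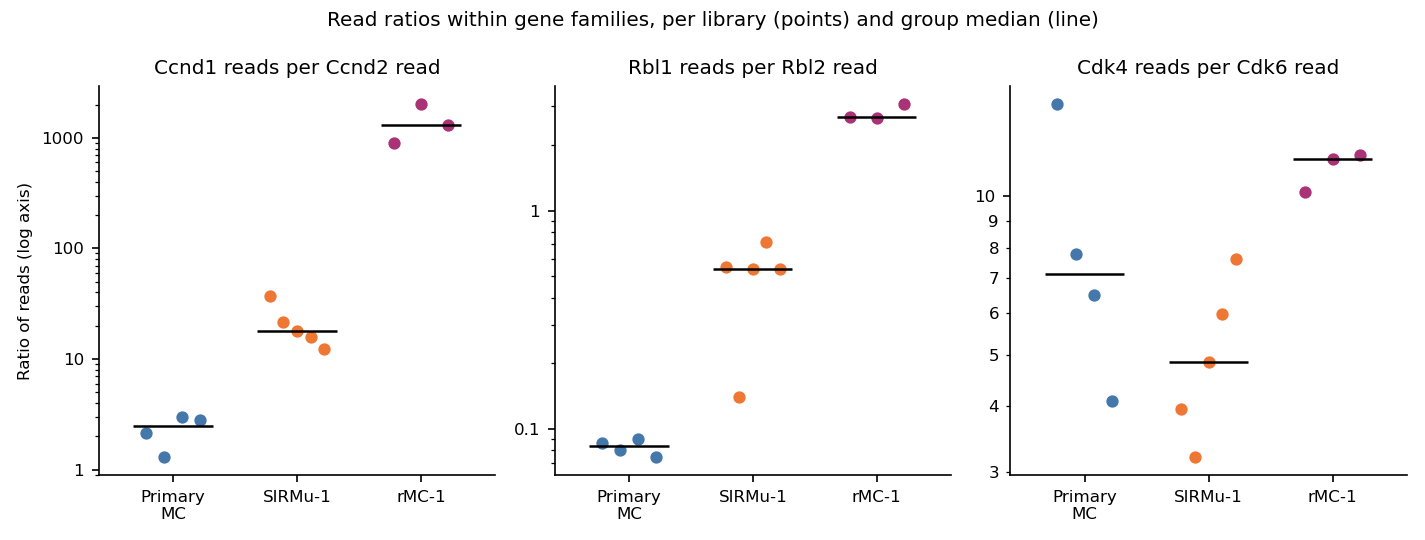
Reads of one gene per read of another in the same library (log axis), 1 point per library with a line at the group median, for Ccnd1 to Ccnd2, Rbl1 to Rbl2 and Cdk4 to Cdk6. The first 2 ratios climb from primary cultures over SIRMu-1 to rMC-1, with SIRMu-1 replicate 2 at 0.141 Rbl1 reads per Rbl2 read and the rest of its line at 0.538 to 0.718, and the third overlaps between primary cultures and both lines.

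Both kinases rose in SIRMu-1, and in rMC-1 Cdk4 rose while Cdk6 was not called. Cdk4, the catalytic partner of D cyclins found in most tissues, had 167 to 192 CPM in primary libraries, 318 to 406 in SIRMu-1 and 289 to 339 in rMC-1. Both lines lay wholly above the primary cultures and overlapped each other. Cdk4 rose by 1.02 ± 0.11 (log2) in SIRMu-1 (edgeR adjusted p = 3.24e-05) and by 0.81 ± 0.12 in rMC-1 (7.4e-05), or by 1.29 in rMC-1 when libraries were scaled by their totals alone. The lines differed by -0.21 ± 0.11 (95% interval -0.46 to 0.05; edgeR adjusted p = 0.133), a difference whose sign turned with totals alone (0.24).

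Cdk6 is the partner kinase with a more restricted range of tissues. In primary replicates 1 to 4 it was at 12.9, 21.4, 29.6 and 41.6 CPM, the widest relative spread among the 10 genes in that group (coefficient of variation 46.4%). SIRMu-1 replicates 1 to 5 had 84.7, 99.3, 75.4, 67.4 and 53.5 CPM, and rMC-1 replicates had 31.9, 24.5 and 28.1 CPM. All SIRMu-1 libraries lay above all others, and rMC-1 lay within the range of the primary cultures. Cdk6 rose in SIRMu-1 by 1.53 ± 0.29 (log2) from primary cultures (edgeR adjusted p = 0.00149) and was lower in rMC-1 than in SIRMu-1 by a log2 difference of -1.43 ± 0.33 (0.00234). Between rMC-1 and primary cultures the difference was 0.09 ± 0.32 (95% interval -0.64 to 0.83; edgeR adjusted p = 0.802), and it was -0.14 without primary replicate 1. Cdk4 reads per Cdk6 read were 4.09 to 15 in primary libraries, 3.20 to 7.60 in SIRMu-1 and 10.2 to 12 in rMC-1.

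The promoter of Cdk4 is shown because Cdk4 was the only one of the 10 genes higher in both lines with no difference called between them. The window covers 250 bases before to 50 after the annotated start, from RefSeq on build GRCr8, chr7:64771203-64771502, plus strand, which is not the build of the counts. Capitals mark CACGTG, the E-box bound by MYC and related factors. It was chosen after the sequence had been seen.
Cdk4: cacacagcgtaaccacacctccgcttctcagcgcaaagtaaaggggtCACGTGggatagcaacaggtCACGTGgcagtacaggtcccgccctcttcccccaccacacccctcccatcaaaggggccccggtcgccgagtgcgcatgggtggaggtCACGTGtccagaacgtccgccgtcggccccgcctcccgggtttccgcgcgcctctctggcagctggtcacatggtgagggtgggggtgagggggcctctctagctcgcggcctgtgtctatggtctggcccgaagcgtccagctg
CACGTG, which reads the same on both strands, occurs 3 times in this window, starting 203, 183 and 95 bases before the start, and at least once in 6.42% of the 33469 promoter windows of that length in the table. None of the other 5 member windows holds it. A match is a run of letters and was not tested as a site.

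Within the retinoblastoma family the 3 genes took 3 courses: Rb1 was not called in any comparison, Rbl2 was lower in both lines, and Rbl1 was higher in both. Rb1 encodes the retinoblastoma protein itself, the main brake on the G1/S step. It stood at 58.0, 90.9, 58.5 and 65.6 CPM in primary replicates 1 to 4, at 66.8, 106, 59.8, 40.2 and 46.2 CPM in SIRMu-1 replicates 1 to 5 and at 53.8, 98.8 and 80.2 CPM in rMC-1. The groups overlapped, with SIRMu-1 replicate 2 the highest of all libraries and replicate 4 the lowest. The log2 difference from primary cultures was -0.10 ± 0.28 in SIRMu-1 (95% interval -0.73 to 0.53; edgeR adjusted p = 0.799) and 0.18 ± 0.32 in rMC-1 (-0.53 to 0.90; 0.612). The SIRMu-1 value turned positive without primary replicate 2 (0.07) or SIRMu-1 replicate 4 (0.03). Between rMC-1 and SIRMu-1 it was 0.28 ± 0.30 (edgeR adjusted p = 0.437), and 0.75 (0.0329) when libraries were scaled by totals alone.

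Rbl2, which encodes p130, the pocket protein of resting cells, had 53.3 to 97.7 CPM in primary libraries. SIRMu-1 had 29.2 to 43.0 CPM and rMC-1 33.0 to 40.8 CPM. All 8 libraries of the lines lay below all 4 primary libraries, and the lines overlapped. Rbl2 fell by 0.96 ± 0.18 on the log2 scale in SIRMu-1 (edgeR adjusted p = 0.00143) and by 0.94 ± 0.21 in rMC-1 (0.00201). The call in rMC-1 was lost with scaling by totals alone (-0.45, edgeR adjusted p = 0.0656). The lines differed by 0.02 ± 0.20 (95% interval -0.43 to 0.47).

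Rbl1, which encodes p107, rose in both lines and furthest in rMC-1. Primary replicates 1 to 4 had 5.17, 7.82, 6.04 and 3.97 CPM. SIRMu-1 replicates 1 to 5 had 17.7, 5.98, 17.0, 20.9 and 23.3 CPM, and rMC-1 had 92.7, 108 and 102 CPM. Replicate 2 of SIRMu-1 lay inside the range of the primary cultures, its other 4 libraries lay above it, and rMC-1 lay far above both. Rbl1 rose by 1.56 ± 0.33 (log2) in SIRMu-1 (edgeR adjusted p = 0.00274) and by 4.13 ± 0.39 in rMC-1 (2.72e-06), and was higher in rMC-1 than in SIRMu-1 by 2.57 ± 0.34 (4.71e-05). The change in rMC-1 was 17.5-fold. Rbl1 reads per Rbl2 read went from 0.0744 to 0.0905 in primary libraries over 0.141 to 0.718 in SIRMu-1 to 2.65 to 3.08 in rMC-1.

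Of the activating E2F genes, E2f1 rose in both lines and E2f3 in rMC-1. E2f1, an activating E2F that is also its own target, had 9.62, 6.44, 6.93 and 6.30 CPM in primary replicates 1 to 4, 25.8, 13.5, 22.1, 30.1 and 28.7 CPM in SIRMu-1 replicates 1 to 5, and 53.9, 67.1 and 54.5 CPM in rMC-1. No group overlapped another, and SIRMu-1 replicate 2 was again the lowest of its group. E2f1 rose by 1.71 ± 0.23 (log2) in SIRMu-1 (edgeR adjusted p = 0.000148) and by 3.00 ± 0.25 in rMC-1 (1.36e-06), and the lines differed by 1.28 ± 0.23 (0.000452). E2f3, the other activating factor, had the smallest relative spread of the 10 genes among primary libraries (coefficient of variation 4.19%): 12.3 to 13.4 CPM in primary libraries, 12.7 to 16.9 in SIRMu-1 and 25.7 to 27.9 in rMC-1. It rose by 1.06 ± 0.12 in rMC-1 (edgeR adjusted p = 1.13e-05), and the SIRMu-1 difference was 0.15 ± 0.11 (95% interval -0.10 to 0.39; 0.285).

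**Figure D3:**
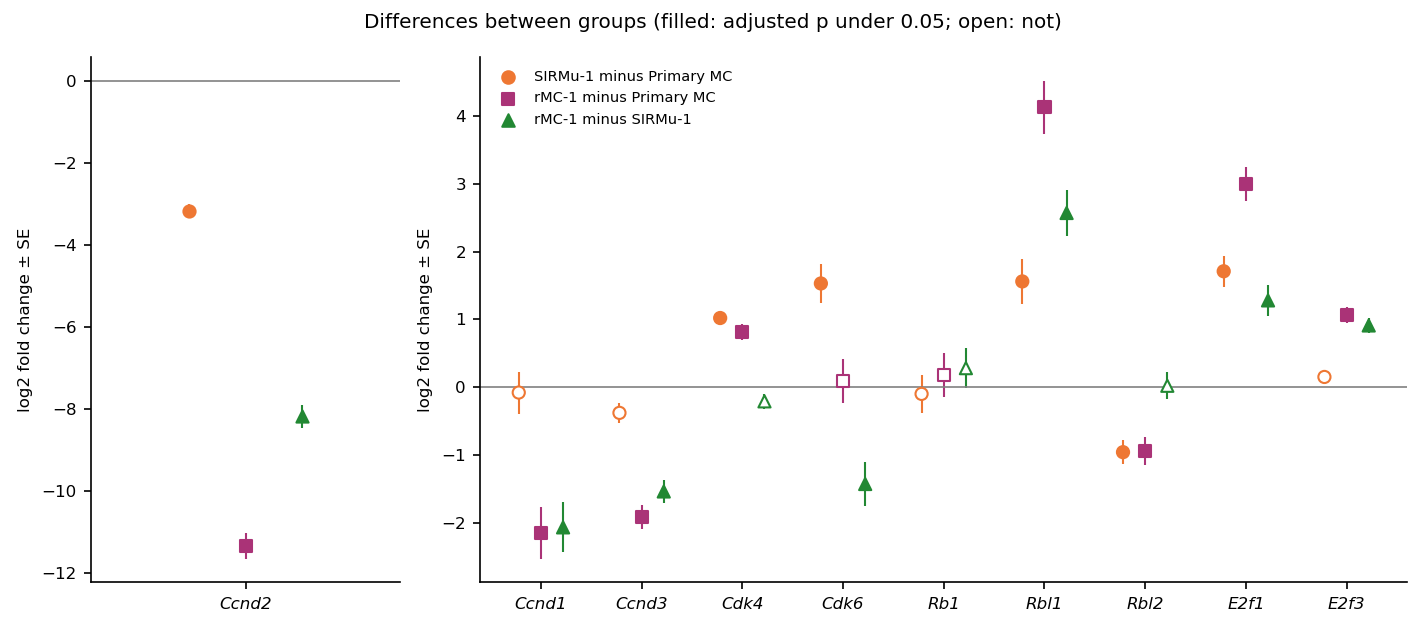
Log2 fold change of each gene in the 3 comparisons, with bars of 1 standard error; filled symbols are called (adjusted p under 0.05) and open symbols are not. Ccnd2 has its own axis because its values reach -11.33, and Rb1 is open in all 3 comparisons.

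The promoters of Rbl1, E2f3 and Rb1 are shown because they hold an E2F motif and their RNA did not move alike. Promoter windows were found for 6 of the 10 genes (Ccnd3, Cdk4, Rb1, Rbl1, Rbl2 and E2f3) in RefSeq on build GRCr8. Ccnd1, Ccnd2, Cdk6 and E2f1 had no entry. They were searched on both strands for TTTCCCGC, TTTCGCGC, TTTGCCGC and TTTGGCGC, the common forms of the E2F site. Capitals mark the match. The windows are chr3:166289327-166289626 on the minus strand, chr17:34810166-34810465 on the plus strand and chr15:54911808-54912107 on the minus strand, each written in the direction of the gene.
Rbl1: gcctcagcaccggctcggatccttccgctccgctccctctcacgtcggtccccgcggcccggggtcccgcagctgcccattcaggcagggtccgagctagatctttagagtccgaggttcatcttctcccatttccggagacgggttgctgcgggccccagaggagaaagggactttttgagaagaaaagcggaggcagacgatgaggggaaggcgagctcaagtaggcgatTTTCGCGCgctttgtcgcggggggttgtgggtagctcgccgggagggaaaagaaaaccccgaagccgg
E2f3: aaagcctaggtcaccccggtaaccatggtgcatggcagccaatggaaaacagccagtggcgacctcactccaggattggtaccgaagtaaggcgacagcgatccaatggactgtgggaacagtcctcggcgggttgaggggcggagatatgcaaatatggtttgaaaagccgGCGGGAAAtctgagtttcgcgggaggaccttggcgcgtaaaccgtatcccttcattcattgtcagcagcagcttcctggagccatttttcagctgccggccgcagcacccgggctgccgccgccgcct
Rb1: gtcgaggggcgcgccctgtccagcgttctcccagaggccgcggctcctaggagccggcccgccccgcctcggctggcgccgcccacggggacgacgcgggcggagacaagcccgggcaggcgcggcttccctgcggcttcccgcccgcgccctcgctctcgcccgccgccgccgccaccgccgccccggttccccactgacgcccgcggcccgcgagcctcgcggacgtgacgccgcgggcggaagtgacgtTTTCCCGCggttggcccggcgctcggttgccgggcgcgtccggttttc
Rbl1 carries TTTCGCGC starting 18 bases before the start, E2f3 carries TTTCCCGC on the other strand 78 bases before it, and Rb1 carries TTTCCCGC from base 3 of the transcript. One of the 4 forms is in 3 of the 6 member windows and in 2.14% of all 33469 windows. Rbl1 rose in both lines, E2f3 was called in rMC-1 and not in SIRMu-1, and Rb1 was called in neither. A match is no site, and no binding was measured.

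The level of genes of cycling cells rose from primary cultures over SIRMu-1 to rMC-1, as did the group means of Rbl1 and E2f1. The D cyclins, Rb1, Cdk6 and Rbl2 did not follow that order. The median of 15 mitotic genes such as Mki67 and Top2a was 1.95 to 2.98 log2 CPM in primary libraries, 5.70 to 6.41 in 4 SIRMu-1 libraries, 4.10 in SIRMu-1 replicate 2 and 7.84 to 7.98 in rMC-1. In SIRMu-1 replicate 2, Rbl1 (5.98 CPM) and E2f1 (13.5 CPM) were the lowest of the line, while Rb1 (106 CPM), Cdk6 (99.3 CPM), Ccnd1 (820 CPM), Ccnd2 (38.2 CPM) and Ccnd3 (231 CPM) were its highest. Cdk4 was lowest there as well (318 CPM), though well above the primary libraries. Without this library Rbl1, E2f1, Cdk4, Cdk6, Ccnd2 and Rbl2 were still called between SIRMu-1 and primary cultures, and Ccnd3 was called too (-0.47, edgeR adjusted p = 0.0191). The part of the share of cycling cells in the members' levels was not tested.

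**Figure D4:**
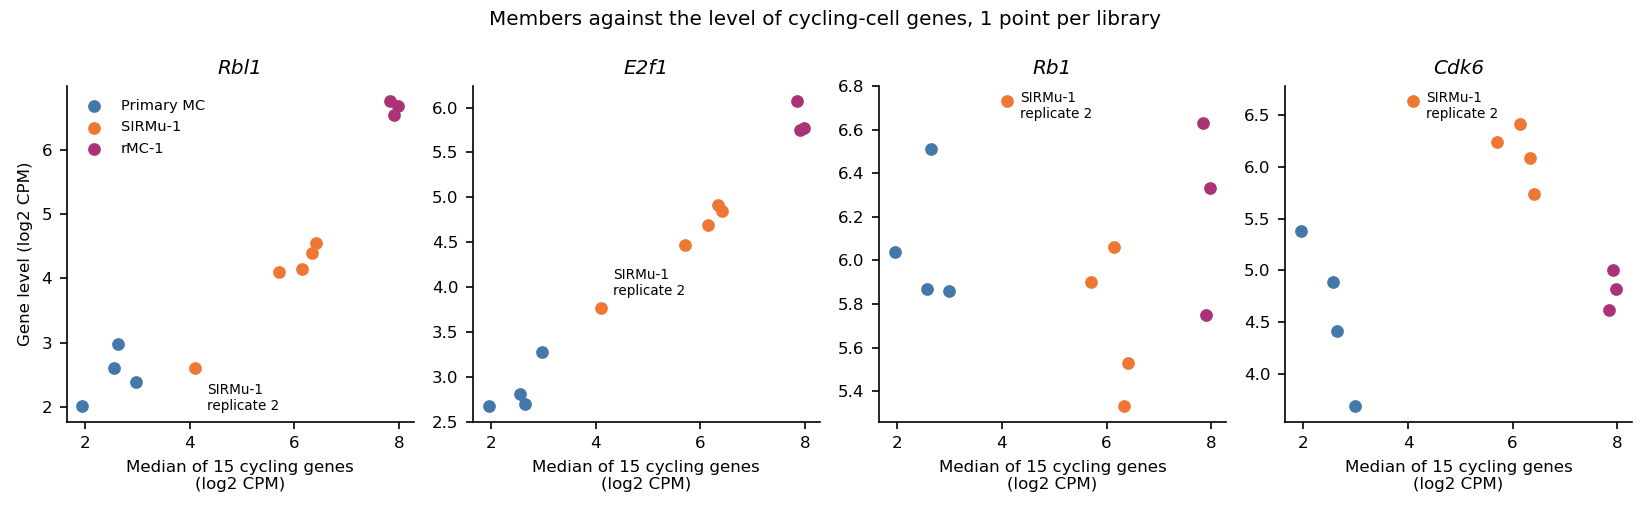
Level of Rbl1, E2f1, Rb1 and Cdk6 (log2 CPM) against the median of 15 genes of cycling cells in the same library (log2 CPM), 1 point per library. Rbl1 and E2f1 lie low in primary cultures, in between in SIRMu-1 and high in rMC-1, and SIRMu-1 replicate 2 has the lowest cycling-gene median of its line (4.10), with Rbl1 inside the primary range and E2f1 just above it; Rb1 and Cdk6 show no such order and are highest in that library.

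The genes most like each D cyclin and retinoblastoma gene were sought among 9226 others by the root mean square difference of centred log2 CPM over the 12 libraries. For Ccnd2 they were Peg3 (0.46) and the cathepsin gene Ctsh (0.60), both near 0 in rMC-1 (at most 0.057 and 0.158 CPM). Those of Ccnd1 were Cyp2u1 (0.29) and Ypel5 (0.31), and those of Ccnd3 were Golga5 and Msrb2 (both 0.16). Rbl1 was nearest to Atad2 (0.21) and Mcm4 (0.24), a subunit of the replicative helicase that went from 24.2 CPM in primary cultures over 73.6 in SIRMu-1 to 535 in rMC-1. The nearest to Rbl2 were Tgfbrap1 (0.18) and Birc2 (0.21), and to Rb1 Prkci (0.21) and Sirt3 (0.23). The standard deviation of log2 CPM over the libraries was 4.28 for Ccnd2, 1.73 for Rbl1, 1.06 for Ccnd1, 0.81 for Ccnd3, 0.52 for Rbl2 and 0.43 for Rb1.

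Upstream of the kinases, the inhibitors of CDK4 and CDK6 did not share a direction. Cdkn2c, which encodes p18, was higher in SIRMu-1 (3.42 ± 0.34, from 2.06 to 22.2 CPM) and in rMC-1 (4.35 ± 0.37, to 42.2 CPM; edgeR adjusted p = 2.52e-05 and 1.35e-06). Cdkn2b, which encodes p15, fell by 1.66 ± 0.42 (log2) in SIRMu-1 and by 1.69 ± 0.50 in rMC-1, from 375 to 119 and 116 CPM (edgeR adjusted p = 0.00725 and 0.00976). Cdkn2a encodes p16 and also ARF, which does not inhibit CDK4 or CDK6, and counts per gene do not separate them. Cdkn2a had -1.32 ± 0.41 in SIRMu-1 (edgeR adjusted p = 0.0205), or -0.44 without primary replicate 4. That call was lost when libraries sharing a code in their file names were summed (0.159), with the SIRMu-1 libraries grown with the drugs alone (0.109) and with a replicate block (0.0947). In rMC-1 Cdkn2a had 0.36 ± 0.46 (edgeR adjusted p = 0.497), or 1.24 (1.86e-05) without that library. Between the lines Cdkn2a was higher in rMC-1 (1.69 ± 0.44; edgeR adjusted p = 0.00534), a call lost with the same codes summed (0.0982), as was that of Cdkn2c there (0.101). Against primary cultures, Cdkn1b, the gene of p27, was higher in SIRMu-1 by 1.84 ± 0.33 and in rMC-1 by 3.44 ± 0.37 (edgeR adjusted p = 0.000872 and 7.48e-06). Cdkn1a, the gene of p21, changed by -1.49 ± 0.32 in SIRMu-1 and by -5.13 ± 0.45 in rMC-1 (edgeR adjusted p = 0.00269 and 1.7e-06). Of the 6 inhibitors tested, 2 were higher and 3 lower in each line against primary cultures, and 3 were higher and 1 lower in rMC-1 against SIRMu-1. Of all genes tested, 46.1% were called in SIRMu-1 and 70.8% in rMC-1 against primary cultures, and 63.2% between the lines.

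Of 10 genes that control the turnover of D cyclin protein, edgeR called 0 in SIRMu-1 (2 had an unadjusted p under 0.05) and DESeq2 called 1, as lower. Of all genes tested, edgeR called 46.1% in SIRMu-1. Ambra1, the ubiquitin ligase adaptor of D cyclins, had -0.05 ± 0.11 there. In rMC-1 2 were higher and 4 lower than in primary cultures, against 31.9% and 38.9% of all genes tested. The F-box gene Fbxo4 fell by 1.37 ± 0.24 on the log2 scale and Fbxo31 rose by 0.93 ± 0.15 (edgeR adjusted p = 0.000323 and 0.000147), and Ambra1 had -0.01 ± 0.12. With scaling by totals alone Fbxo4 was at -0.88 and Fbxo31 at 1.41, and the split in rMC-1 was 4 higher and 1 lower. Of the CDK-activating kinase, Ccnh and Mnat1 were both higher in rMC-1, by 0.31 ± 0.10 and 0.43 ± 0.12. With scaling by totals alone the values were 0.79 and 0.91. The call of Ccnh was lost without primary replicate 1 (edgeR adjusted p = 0.0515). In SIRMu-1 Mnat1 rose by 0.35 ± 0.10 (edgeR adjusted p = 0.0177), and Ccnh was not called (-0.08 ± 0.09).

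Downstream, other E2F and DP genes were examined. Of 5 tested, 3 were higher and 1 lower in SIRMu-1, against 21.7% and 24.4% of all genes. In rMC-1 4 were higher, against 31.9% of all genes. E2f7, a repressor that is itself an E2F target, went from 0.49 CPM in primary cultures to 8.11 in SIRMu-1 (4.02 ± 0.52; edgeR adjusted p = 0.000117) and 61.8 in rMC-1 (6.95 ± 0.58; 1.21e-06). E2f4, the main E2F partner of p130, was at 30.7, 39.9 and 125 CPM. It rose in SIRMu-1 by 0.38 ± 0.10 and in rMC-1 by 2.03 ± 0.11 (edgeR adjusted p = 0.00937 and 8.81e-08). The dimer partner gene Tfdp1 rose by 0.72 ± 0.11 in SIRMu-1 and by 1.77 ± 0.12 in rMC-1 (edgeR adjusted p = 0.000381 and 4.03e-07). Tfdp2 was lower in SIRMu-1 (-1.19 ± 0.28, edgeR adjusted p = 0.00518). It was not called there with file-name codes summed, where 2 genes of the list were higher and 0 lower. In rMC-1 Tfdp2 was higher than in primary cultures by 1.68 ± 0.32 (edgeR adjusted p = 0.000565) and than in SIRMu-1 by 2.87 ± 0.30.

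At the next step of the cycle, 7 of 8 genes of cyclin E, cyclin A and CDK2 were higher in SIRMu-1 and 8 of 8 in rMC-1. Of all genes tested, 21.7% and 31.9% were higher. The median log2 fold changes of the 8 genes were 1.29 and 3.69. The cyclin gene Ccna2 rose by 3.81 ± 0.49 and 6.01 ± 0.56, and Fbxo5, which encodes an inhibitor of the anaphase-promoting complex, by 3.36 ± 0.39 and 4.91 ± 0.43. Cdk2 was higher in rMC-1 than in SIRMu-1 by 2.70 ± 0.23 (edgeR adjusted p = 2.07e-06), from 25.9 to 169 CPM, whereas Cdk4 was not called between the lines. Between the lines, 30.5% of all genes were higher in rMC-1. Of 23 E2F target genes, 22 were higher in SIRMu-1 (median 2.24) and 23 in rMC-1 (median 4.47), and 22 were higher in rMC-1 than in SIRMu-1 (median 2.40). Of these, Tk1 and Uhrf1 changed most in SIRMu-1 (3.93 ± 0.41 and 3.72 ± 0.46), Cdc45 and Mcm5 in rMC-1 (6.89 ± 0.53 and 6.73 ± 0.60), and Cdt1 and Cdc45 between the lines (3.65 ± 0.43 and 3.58 ± 0.41). These lists hold many genes of cycling cells, and no list was tested as a set.

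Partners of the pocket proteins were called about as often as all genes tested (46.1% in SIRMu-1 and 70.8% in rMC-1). Their calls were mostly higher, whereas 21.7% and 31.9% of all genes were called higher. Of 5 genes of the DREAM and MYB-MuvB complexes, which join Rbl1 or Rbl2 with E2F4 in resting cells and MYBL2 with FOXM1 in cycling ones, 3 were higher in SIRMu-1 and 4 in rMC-1. Mybl2 rose by 3.90 ± 0.51 and 6.61 ± 0.59, and Foxm1 by 2.18 ± 0.32 and 4.27 ± 0.37. Of 10 corepressors, 4 were higher and 1 lower in SIRMu-1, and 7 higher and 1 lower in rMC-1; the 1 lower gene became 0 in 6 of 22 alternatives for SIRMu-1 and 6 of 21 for rMC-1. Ezh2, a histone methyltransferase and E2F target, rose by 2.63 ± 0.29 in SIRMu-1 and 4.68 ± 0.34 in rMC-1. Hdac2 rose by 0.64 ± 0.12 and 0.61 ± 0.14 in these lines (edgeR adjusted p = 0.00145 and 0.00176). Suv39h1 rose by 0.75 ± 0.23 and 2.54 ± 0.26 (edgeR adjusted p = 0.02 and 5.62e-06).

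**Figure D5:**
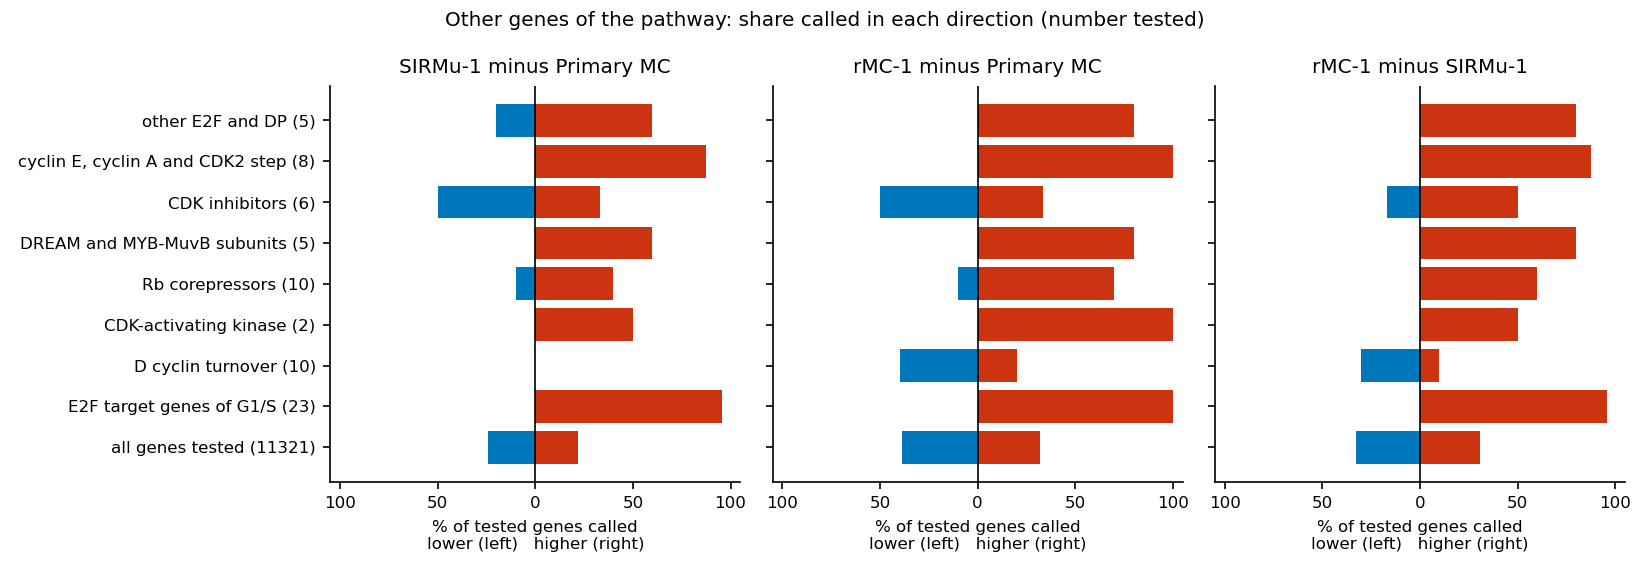
Share of the tested genes of each pathway list called higher (right, red) or lower (left, blue) in the 3 comparisons, with the number tested in brackets and all genes tested in the bottom row. E2F targets are called higher in 22 or 23 of 23 cases, while the inhibitors go both ways in all 3, and the turnover genes go both ways in the 2 comparisons with rMC-1 and have no call between SIRMu-1 and primary cultures.

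Gentamicin and amphotericin B were compared within SIRMu-1, in 2 libraries with and 3 without. Those with the drugs were of passages 11 and 20 and those without of passages 6, 11 and 11, so drugs and passage are not fully separate. Replicate 2, lowest in genes of cycling cells, was without the drugs. None of the 10 genes was called (0 by edgeR, where 0% of all genes were called, and 0 by DESeq2), the libraries overlapped for all 10 (15.8% of all genes did not overlap), and none had an unadjusted p under 0.05, the lowest being 0.278. Over all 11636 genes, edgeR called 0, with 433 (3.72%) at an unadjusted p under 0.05, and DESeq2 called 4. The log2 differences of the 10 genes ran from -0.48 ± 0.42 for Ccnd1 (95% interval -1.43 to 0.47) to 0.44 ± 0.42 for Rbl1 (-0.51 to 1.40). With 1 library left out, that of Rbl1 ran from 0.06 to 0.77.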

How the data were processed

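The values used are raw read counts per gene, in whole numbers, which the authors deposited for each library separately. The tools listed, per the submitters' processing notes, are STAR 2.5.3a, cutadapt 1.8.1 and edgeR 3.18.1, with build rn6. Not given in the sources used here: what each tool did, the annotation, and whether counting used the strand of the stranded kit, so genes that overlap on opposite strands have uncertain counts. Reads outside genes (24.2% to 30.3% of a library), with several mapping places (9.47% to 12.3%), unmapped (1.84% to 2.54%) or ambiguous (0.152% to 0.193%) were left out. The 12 columns of a deposited log2 CPM table were not used. Groups and replicate numbers came from the sample titles.

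The counts went into edgeR 4.0.16 under R 4.3.3: its expression filter (11321 of 17315 genes kept), TMM factors (0.8393 to 1.284) and a quasi-likelihood fit to the 12 libraries with 3 means (residual degrees of freedom 9), or 4 means with SIRMu-1 split by the drugs (8). Benjamini-Hochberg adjustment ran over all genes tested. Standard errors are the log2 fold change divided by the root of F, and intervals use 9 degrees of freedom. Log2 CPM used a prior count of 2. The series text calls the libraries biological replicates but names no animals, so a p-value reflects only how far these libraries differ, which could be partly technical. Alternatives were DESeq2 1.42.0, other scalings and filters, each library left out, 2-group fits, a replicate block, summed file-name codes and drug-matched SIRMu-1 libraries.

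The 10 genes and the lists were chosen with earlier results of these data known. All 10 were named. Of each other pathway list except the mitotic genes, the 2 called genes with the largest change in each comparison were named. They were taken from those with a mean of at least 1 log2 CPM and no overlap between groups. Mki67 and Top2a were given only as examples of the mitotic genes, outside this rule. The inhibitors of CDK4 and CDK6 were named in any case. Likewise for each D cyclin and retinoblastoma gene the 2 nearest genes in pattern. Tfdp2 in SIRMu-1 and Ambra1 were named after their values were seen. So were the single marker genes given beside the sums. For genes named in 1 line, the value in the other line was also added after it was seen. E2f2, E2f5, E2f8, Cdkn2d, Lin9, Lin52 and Cdk7 were not analysed here. Replicate numbers are shared by the groups, but no source says that they mark a shared animal or day.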

Additional observations from a re-analysis of the deposited data

Results flagged for a closer look

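Of 20 groups of 4 or 5 libraries checked for a library far from the others, 2 held one, where chance alone would give about 1 in 20 groups. Ccnd3 in primary replicate 1 stood at 311 CPM, against 217 to 226 CPM in the other 3 primary libraries, and Rbl1 in SIRMu-1 replicate 2 stood at 5.98 CPM, against 17.0 to 23.3 CPM in the other 4 SIRMu-1 libraries.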

How the results depend on the processing

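Of 650 values of the 10 genes under alternatives in the 3 comparisons, 627 kept their direction and their side of the threshold, 12 changed sign (none of them called), 10 became called and 1 lost its call. Leaving out 1 library gave ranges from -0.29 to 0.16 for Ccnd1 and from -0.36 to 0.07 for Rb1 in SIRMu-1 against primary cultures, from -0.14 to 0.40 for Cdk6 in rMC-1 against primary cultures and from -0.05 to 0.19 for Rbl2 between the lines. Rbl2 between the lines was -0.01 with upper quartile factors, and Cdk4 there was 0.24 with library totals alone. Totals alone moved the median log2 fold change over all genes in rMC-1 against primary cultures from -0.15 to 0.32 and the share of calls that were higher from 45.1% to 61.9%, and between the lines from -0.03 to 0.40 and from 48.3% to 69.2%. With the file-name codes summed, 3173 genes were called between SIRMu-1 and primary cultures in place of 5220, with fewer samples, and 6 of the 10 genes were called. For the drugs, DESeq2 called 4 genes, and leaving out 1 library gave 0 to 2 (2 without SIRMu-1 replicate 3). Leaving out 1 library there also turned the sign of Ccnd2 (-0.05 to 0.34), Rbl2 (-0.13 to 0.31), E2f1 (-0.14 to 0.37) and E2f3 (-0.12 to 0.28), none of them called. In rMC-1 against primary cultures, library totals alone gave 4 turnover genes higher and 1 lower in place of 2 and 4. Adding a block for the replicate number, Ccnd1 in SIRMu-1 was 0.03, the genes called numbered 4973, 8019 and 7157 and the members called 6, 8 and 7 in the 3 comparisons, and Cdkn2a in SIRMu-1 lost its call (adjusted p = 0.0947). Same-numbered libraries deviated together with correlations of -0.0626 to 0.0978 over 10 pairs, and 4 of 12 libraries correlated best with their own number, so the numbers were not taken as pairs. The cause of the other changes was not tested. Depth limited Ccnd2 in rMC-1, which rests on 13 reads.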
